A study of Mus musculus with 10 samples.

Results

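The genes of mouse chromosome 12 were followed as a block in tumours grown from 4T1 cells, a BALB/c mammary carcinoma line. They were the protein-coding genes of that chromosome in the GENCODE M21 annotation (GRCm38) whose mean log2(normalized count + 1) over all libraries was above 6. This rule chose 382 of the 460 protein-coding genes of chromosome 12 in the table, out of 11083 such genes on all chromosomes and 18047 genes in all. Lrrn3, at 6.01, and Atp5s, at 6.02, were just inside the threshold, and Gpr132, at 5.99, and Asb2, at 5.98, were just outside. For each library, a gene's deviation is its log2 level minus its mean over the 10 libraries, minus the median of that quantity over the 11083 genes. A library with high values therefore lowers the deviations of the others. Chromosome 12 was singled out with these deviations in view, so the values of the chromosome and its windows are given as a description, with no test.

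Bulk RNA was sequenced from tumours that had grown in mice for 3 weeks. In 5 libraries (KO1 to KO5) the implanted cells carried a knockout of 1 gene, and in 5 (WT1 to WT5) they were wild-type 4T1 cells. All libraries share the treatment label, in vivo growth, and the batch label, 1. The labels do not say whether the KO cells were a single clone, and they name no animal for any library. P-values therefore cover only the spread between these libraries, which may be technical.

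A chromosome-wide shift of RNA is read from many genes at once, because single genes also follow the mix of cells in a tumour. Tumour cell lines commonly carry extra or missing copies of chromosomes and can hold subclones that differ in them, and RNA from a chromosome tends to follow its copy number. DNA copy number was not measured here. In mouse, chromosome 12 carries the immunoglobulin heavy chain locus and the imprinted Dlk1-Dio3 domain near its distal end. It also holds genes of general cell function, among them the ribosomal protein gene Rps7, the chaperone gene Hsp90aa1 and the hypoxia regulator Hif1a.

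Several libraries stood apart before any comparison. The reads behind the values ranged from 8609756 in KO1 to 19934428 in WT4. GC content correlated with the deviations of 17883 genes at an r of 0.521 in WT4, -0.403 in WT5 and -0.292 in KO1, and lay between -0.150 and 0.180 in the other 7. A second scale was therefore used beside the deposited values, on which smooth trends of GC content and gene length were removed from each library (below, the corrected scale). Markers of skin keratinocytes had a mean log2 level of 6.05 in WT2, 9.43 in WT3 and 8.20 in WT5, against 0.708 to 2.2 in the other 7. Carcinoma markers were lower in KO for 8 of 8 genes. Their mean log2 level was 9.85 ± 0.41 for KO against 10.80 ± 0.50 for WT (SD over 5 libraries), and no KO library reached the lowest WT library. KO2, at 9.30, and KO5, at 9.57, were the lowest. KO5 and WT1 to WT4 have library names that begin with RESUB, which the labels do not explain, and WT2 and WT5 share the library number 170. The labels do not say whether these are the same tumour, so the 5 WT libraries may come from 4 tumours. In bulk RNA, fewer cells of a type and less RNA per cell cannot be told apart.

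The promoter sequences of 4 genes are shown because these have the smallest unadjusted p among the genes higher in KO (Gpr65, Mbip, Taf1b) and lower in KO (Jag2). That display was chosen after the values were seen. Each is the stretch of 250 bases before the RefSeq transcription start (GRCm38.p6), written 5′ to 3′ on the gene's own strand. Capitals mark matches to 5 motifs searched on both strands: the GC box GGGCGG, the CCAAT box CCAAT, the TATA motif TATAAA, the E-box CACGTG and the ETS motif CCGGAAG, with overlapping matches each counted. No motif contains another. The regions are chr12:98268385-98268634 on the plus strand (Gpr65), chr12:56345895-56346144 on the minus strand (Mbip), chr12:24498331-24498580 on the plus strand (Taf1b) and chr12:112929496-112929745 on the minus strand (Jag2).
Gpr65: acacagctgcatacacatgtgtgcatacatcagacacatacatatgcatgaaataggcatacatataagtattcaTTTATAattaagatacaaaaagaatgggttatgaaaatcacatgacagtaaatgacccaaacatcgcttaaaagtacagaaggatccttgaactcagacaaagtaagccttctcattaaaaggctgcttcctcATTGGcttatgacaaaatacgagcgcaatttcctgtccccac
Mbip: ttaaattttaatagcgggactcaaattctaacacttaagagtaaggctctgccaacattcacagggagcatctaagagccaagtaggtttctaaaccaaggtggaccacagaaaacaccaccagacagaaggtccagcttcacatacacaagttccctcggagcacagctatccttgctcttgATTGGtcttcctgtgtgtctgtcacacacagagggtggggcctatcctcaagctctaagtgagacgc
Taf1b: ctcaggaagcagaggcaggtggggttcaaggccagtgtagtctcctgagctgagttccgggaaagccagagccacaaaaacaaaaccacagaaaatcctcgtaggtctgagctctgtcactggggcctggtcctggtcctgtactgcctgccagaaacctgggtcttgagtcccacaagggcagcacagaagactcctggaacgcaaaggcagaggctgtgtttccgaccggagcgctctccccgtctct
Jag2: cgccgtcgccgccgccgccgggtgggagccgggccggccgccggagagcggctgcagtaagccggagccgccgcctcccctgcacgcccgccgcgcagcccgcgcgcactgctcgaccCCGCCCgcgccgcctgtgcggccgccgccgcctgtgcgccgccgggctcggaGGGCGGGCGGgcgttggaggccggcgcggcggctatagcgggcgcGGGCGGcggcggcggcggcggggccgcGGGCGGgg
The sequences differ widely in composition. The Gpr65 promoter is 36.8% GC with 3 CpG dinucleotides, and it holds 1 TATA match and 1 CCAAT match, both on the reverse strand. The Mbip promoter is 47.2% GC and holds 1 CCAAT match on the reverse strand. For Taf1b the stretch shown is 57.6% GC and holds none of the 5 motifs. Its RefSeq start at 24498581 lies downstream of the GENCODE start at 24498359, so most of the stretch is inside the GENCODE gene. The stretch shown for Jag2 is 87.2% GC with 54 CpG dinucleotides and 5 GC boxes. The GENCODE start of Jag2, at 112929776, lies upstream of this whole stretch, which is therefore inside the GENCODE gene.

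RefSeq promoters matched 331 of the 382 chromosome 12 genes and 8774 of the 11083 genes in all, which include those 331. The shares were not tested. The GC box was in 58.9% of the chromosome 12 promoters and 61.2% of all, the CCAAT box in 35% and 36.4%, and the TATA motif in 6.95% and 6.18%. The ETS motif was in 13.3% and 14.9% and the E-box in 7.25% and 8.49%. Median GC content was 61.6% and 60.4%. A match describes letters in this window and is no evidence of binding.

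The chromosome 12 genes as a block were higher in the KO tumours than in the WT tumours. Libraries KO1 to KO5 had median deviations of 0.003, 0.236, -0.010, 0.124 and 0.183 (log2). Libraries WT1 to WT5 had -0.108, -0.116, -0.079, -0.232 and -0.012. Every KO library lay above every WT library, but by only a small margin: KO1 and KO3 were close to WT5. The KO mean was 0.107 ± 0.109 and the WT mean -0.109 ± 0.080 (SD over 5 libraries), a difference of 0.217, or a ratio of 1.16. Among 20 chromosomes (the autosomes and X) this was the largest difference, with the other 19 between -0.125 and 0.192. On 3 chromosomes, chromosome 12 included, all KO libraries lay above all WT libraries, and on none did they all lie below.

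**Figure D1:**
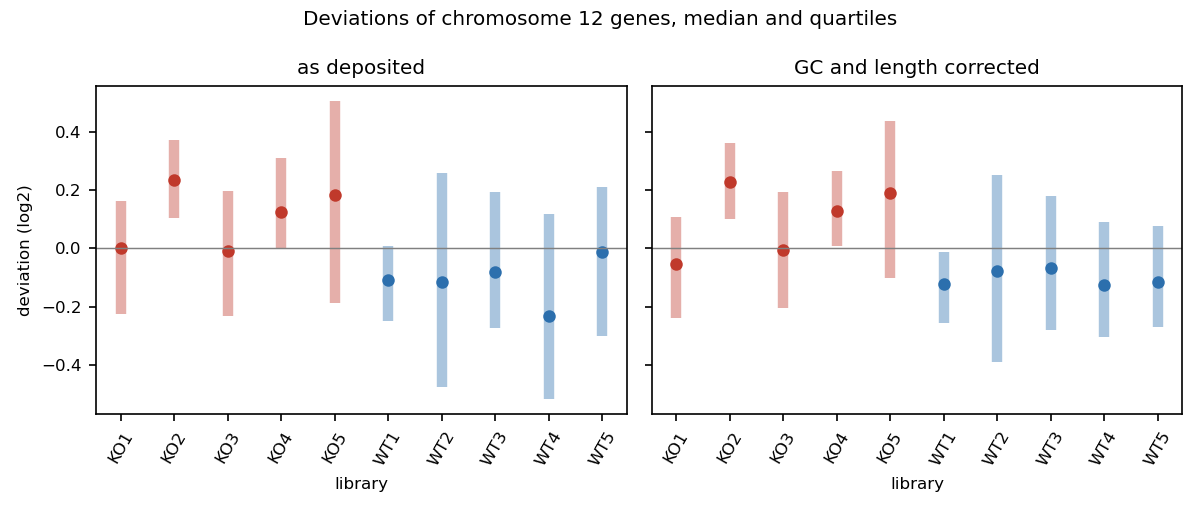
Median deviation (points) and lower to upper quartile (bars) of 382 chromosome 12 genes in each library, in log2 units, for the deposited values and after removal of GC and length trends, with KO in red and WT in blue. KO2, KO4 and KO5 have medians of 0.124 or more on both scales, and all WT medians are below 0.

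The shift was uneven among the KO libraries and it was not carried by a few genes. In KO2, 339 of 382 genes (88.7%) were above 0, with quartiles of 0.105 and 0.372. In KO4 286 (74.9%) were above 0, and in KO5 244 (63.9%), where the quartiles of -0.186 and 0.506 were much wider than in KO2. KO1, with 193 above 0, and KO3, with 186, had about as many genes above as below. From WT1 to WT5, 26.4%, 40.6%, 43.2%, 32.7% and 49.2% of the genes were above 0. Ranked within each library, chromosome 12 had the highest median of the 20 chromosomes in KO2, KO4 and KO5. It ranked 12 in KO1 and KO3, 20 in WT1 and WT2, 19 in WT3 and WT4, and 11 in WT5. The SD of its median over the 10 libraries, 0.145, was also the largest of the 20 chromosomes, with the others at 0.127 or less.

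The corrected scale gave much the same difference, 0.200 (ratio 1.15), and was again the largest of 20. KO1 to KO5 were at -0.054, 0.229, -0.004, 0.128 and 0.190 and WT1 to WT5 at -0.123, -0.078, -0.069, -0.127 and -0.115. WT4 and WT5, the libraries with the strongest GC trends in opposite directions, moved to the level of the other WT libraries, and the WT SD went from 0.080 to 0.027. The KO SD was 0.123. Every KO library still lay above every WT library, with KO1 closest to them.

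The size of the difference depended on the libraries compared. It was 0.313 among the RESUB libraries, of which KO5 alone is KO, and 0.088 among the others, of which WT5 alone is WT. These values were 0.299 and 0.179 on the corrected scale. Leaving out the 3 libraries that hold keratinocyte RNA gave 0.278, and 0.223 on the corrected scale. The only WT libraries then left were WT1 and WT4, both with the RESUB prefix, which KO5 alone of the KO libraries has. WT4 is also the library with the lowest chromosome 12 median and the strongest GC trend. Leaving out each library in turn gave 0.178 to 0.245, and averaging WT2 and WT5 as 1 library gave 0.227. The parts of the carcinoma, adipocyte and muscle marker levels in the difference were not tested.

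**Figure D2:**
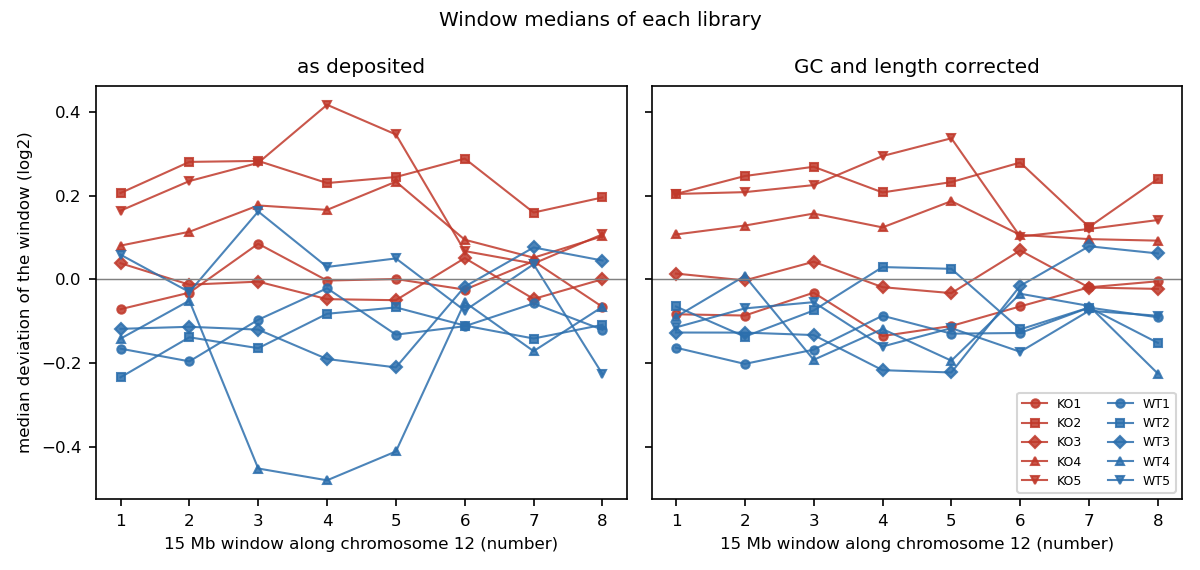
Median deviation (log2) of the genes in each of 8 windows of 15 Mb along chromosome 12, numbered from the centromeric end, with 1 line per library, for the deposited values and the corrected scale. WT4 dips to -0.479 in window 4 on the deposited scale and to -0.118 there on the corrected scale, while KO2 stays between 0.125 and 0.288 in all 8 windows on both scales.

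Along the chromosome, all 8 windows of 15 Mb were higher in KO than in WT. The differences in windows 1 to 8, which hold 31, 29, 37, 34, 45, 92, 47 and 67 genes, were 0.203, 0.222, 0.297, 0.301, 0.309, 0.169, 0.101 and 0.163. Windows 5, 4 and 3 ranked 1, 2 and 3 among 176 windows of the genome with at least 15 genes. The windows of the other chromosomes had a median of -0.003 and a range of -0.181 to 0.270, and 81 of them were above 0. The corrected differences were 0.201, 0.204, 0.256, 0.205, 0.25, 0.192, 0.099 and 0.188, and windows 3 and 5 ranked 1 and 2. Of the 8, only window 3 on that scale had KO libraries wholly above WT libraries. Among the windows of other chromosomes 5 did, and 6 had KO wholly below. On the deposited scale 0 of the 8 windows had KO wholly above WT, and 8 windows of other chromosomes did.

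KO2 was raised nearly evenly along the chromosome, and KO5 was not. KO2 had medians of 0.206, 0.280, 0.283, 0.230, 0.244, 0.288, 0.159 and 0.195 in windows 1 to 8. KO5 had 0.164, 0.235, 0.278, 0.416 and 0.346 in windows 1 to 5 and then 0.068, 0.038 and 0.108 in windows 6 to 8. After correction the distal 3 windows of KO5 were at 0.102, 0.120 and 0.142, below its proximal 5, which ran from 0.204 to 0.337. KO4 was above 0 in all 8 windows on both scales, from 0.052 to 0.233 on the deposited one. KO1 and KO3 were on both sides of 0 on the deposited scale. On the corrected scale KO1 was below 0 in all 8 windows, from -0.135 to -0.005, and KO3 was again on both sides.

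WT4 had its low values in the middle of the chromosome, in the windows of lowest GC content. It was at -0.451, -0.479 and -0.410 in windows 3, 4 and 5, whose genes have median GC contents of 44.2%, 43.6% and 44.7%, and between -0.171 and -0.051 in the other 5, at 47.6% to 53.5%. After correction windows 3 to 5 of WT4 were at -0.192, -0.118 and -0.194. Windows 3 to 5 also depended on the set of libraries: within the libraries without the RESUB prefix, windows 3, 4 and 5 differed by only 0.016, 0.051 and 0.056, and within the prefixed ones by 0.513, 0.607 and 0.511. After correction the same windows differed by 0.162, 0.136 and 0.193 without the prefix and by 0.385, 0.435 and 0.407 with it.

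Genes of chromosome 12 that the rule left out had higher pooled medians in KO, but those that code for protein were split along the chromosome. The 77 protein-coding genes at or below the level threshold that could be tested had medians of 0.121, 0.065, 0.045, 0.042 and 0.051 in KO1 to KO5 and -0.171, -0.181, -0.076, -0.023 and -0.060 in WT1 to WT5. The genes outside the protein-coding annotation class, called here genes that do not code for protein, had -0.031, 0.188, -0.0001, 0.160 and 0.150 in KO1 to KO5. They had -0.125, -0.015, -0.216, -0.037 and -0.155 in WT1 to WT5. KO and WT did not overlap in the former class, and in the latter KO1 fell among the WT libraries. On the corrected scale this was turned round: KO3, at 0.006, lay below WT4, at 0.016, in the former class, and in the latter the lowest KO library, at -0.007, lay above the highest WT library, at -0.061. On the deposited scale the differences were 0.167, rank 2 of 20 chromosomes for such genes, and 0.203, rank 1 of 20. Within the RESUB libraries they were 0.172 and 0.239, and within the others 0.193 and 0.201. By window, the lower-level protein-coding genes were lower in KO in windows 1, 2, 4 and 7, which hold 4, 4, 6 and 11 of them, at -0.270, -0.905, -0.132 and -0.542, and higher in the other 4, at 0.223 to 0.508. Of the 77, 43 (55.8%) had a fitted difference above 0, against 41.0% of 2735 such genes on other chromosomes. At an unadjusted limma p under 0.05, 3 were higher in KO and 7 lower, against 89 and 268 of the 2735. Of the 101 genes that do not code for protein, 82 (81.2%) were above 0, against 66.1% of 3894 elsewhere. Their windows differed by 0.017 to 0.630, and window 4 by -0.008 on the corrected scale. Among those 101 genes 22 are antisense and 20 are processed pseudogenes. Without a stated use of strand, the reads of these may include those of partners or parents. Another 5 are immunoglobulin constant region genes, which encode protein but have an annotation class of their own. One more protein-coding gene had a mean below 10 normalized counts and was not tested.

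**Figure D3:**
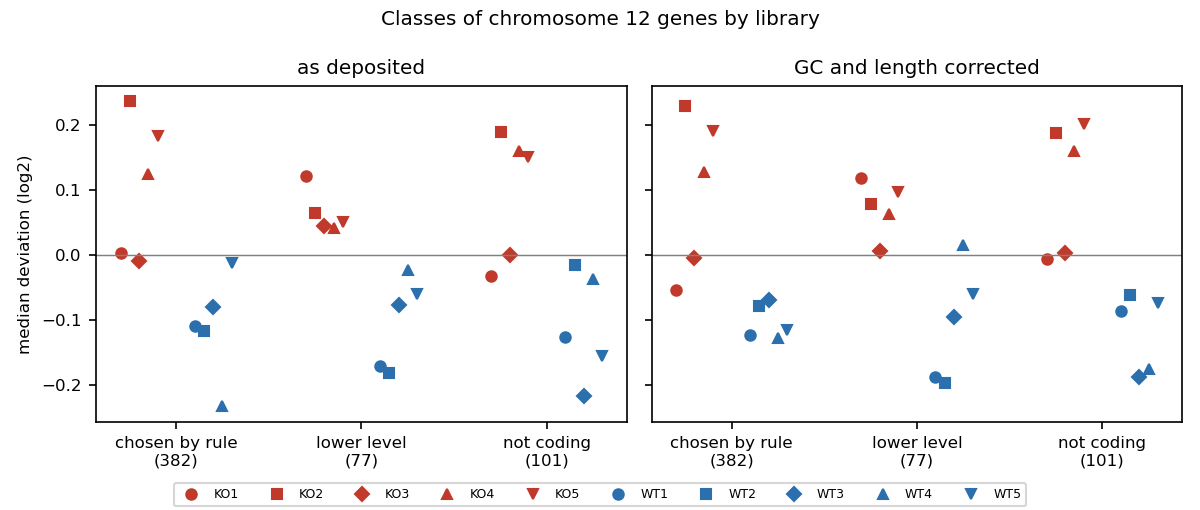
Median deviation (log2) in each library for the 382 genes chosen by the rule, 77 protein-coding genes at lower levels and the genes that do not code for protein, all on chromosome 12, for the deposited values and the corrected scale. In each class KO2, KO4 and KO5 lie above 0 on both scales, and the WT libraries lie below 0 except for WT4 in the lower-level class on the corrected scale, at 0.016.

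Pairs of chromosome 12 genes were weakly correlated across libraries, with the highest median of the 20 chromosomes. Pearson's r had a median of 0.165 over 72771 pairs across the 10 libraries, against -0.011 between chromosome 12 genes and genes of other chromosomes, and the next chromosome was at 0.123. It was 0.178 for pairs in the same window and 0.163 for pairs in different windows. It was 0.190 on the corrected scale. All pairs share the same 10 libraries. Of them 60.9% had a positive r, against 49.3% of pairs with genes of other chromosomes. Genes that share a shift between libraries correlate by construction, and the chromosome was chosen with that shift in view. The rank is therefore a description and no separate support.

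No single chromosome 12 gene passed the test between KO and WT. Limma called 0 of 382 (lowest adjusted p = 0.418), where the background of calls over all 17975 tested genes is 0.0% for higher and 0.00556% for lower in KO. At an unadjusted p under 0.05, 31 were higher in KO and 3 lower, against a background of 2.82% and 3.67% of all tested genes and of 2.41% and 3.24% of genes over the same level threshold on other chromosomes. edgeR also called 0, and at an unadjusted p under 0.05 it had 33 higher in KO and 4 lower (background 2.61% and 4.71%). DESeq2 called 1, Jag2, as lower (adjusted p = 0.0239), where its background of calls is 0.145% higher and 0.529% lower. It had 35 genes higher in KO and 4 lower at an unadjusted p under 0.05 (background 2.88% and 4.96%). The count of 31 was 12 without KO2, 17 without WT1, 18 without KO4 and 19 without KO5. It was 26 without WT3, 30 without WT4, 35 without KO3, 38 without KO1 and 42 without WT2 or without WT5. The count of 3 was 5 without KO1, without KO3 or without WT3. With the correction limma had 75 higher in KO and 3 lower at an unadjusted p under 0.05, against a background of 5.41% and 3.46%, and called 0 (lowest adjusted p = 0.221).

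Small differences in 1 direction were spread over most of the genes. The fitted difference was above 0 for 311 of 382 genes (81.4%), while it was above 0 for 49.0% of all tested genes and for 43.2% of the genes over the same level threshold on other chromosomes. The median difference was 0.21, with quartiles of 0.04 and 0.34, against -0.04 on the other chromosomes and -0.01 over all tested genes. By window, 28 of 31, 23 of 29, 33 of 37, 31 of 34, 41 of 45, 75 of 92, 32 of 47 and 48 of 67 genes had a difference above 0. With the correction 330 of 382 (86.4%) did, where the shares over all tested genes and over the other chromosomes rose to 56.2% and 55.9%. These counts come from the comparison the chromosome was chosen on and are a description.

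**Figure D4:**
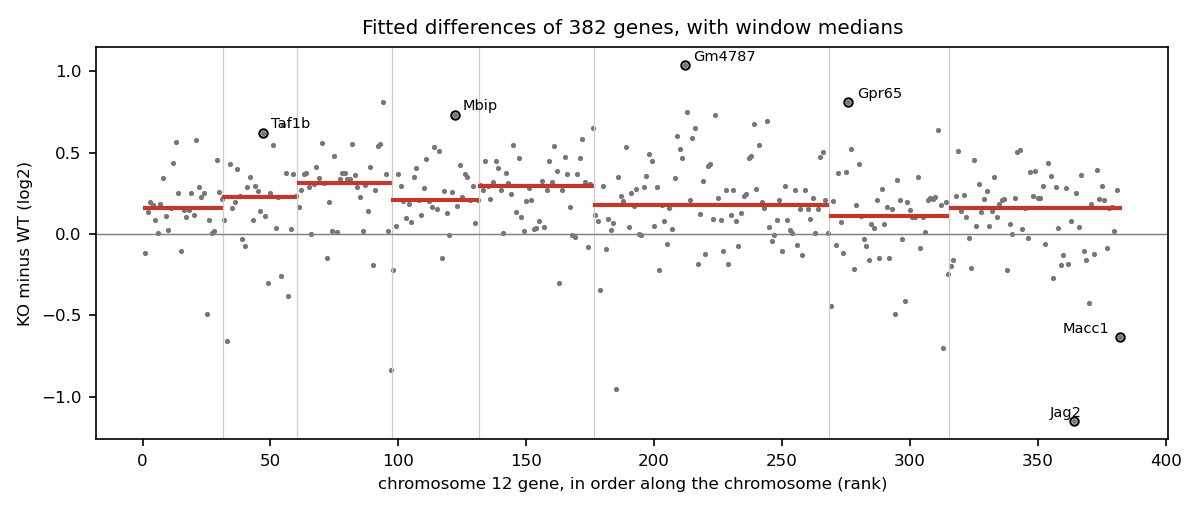
Fitted KO minus WT difference (log2) of each of the 382 genes in order along chromosome 12, with the median of each window as a red bar and grey lines between windows. The window medians are all above 0 and the points range from -1.15 (Jag2) to 1.04 (Gm4787).

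In 6 genes every KO library lay above every WT library, and in 0 genes every KO library lay below, where the background is 0.684% and 0.734% of tested genes, and 0.635% and 0.776% of genes over the level threshold on other chromosomes. The 6 were Taf1b, Snx6, Mbip, Pnn, Slc38a6 and Gpr65. On the corrected scale the counts were 16 and 2 (background 1.4% and 0.693%), with Gpr65, Mbip, Taf1b and Slc38a6 among the 16 and Jag2 and Macc1 as the 2. Window 4, which holds Mbip, Snx6 and Pnn, had 3 genes wholly above WT on the deposited scale and 2 on the corrected one. Fewer libraries overlap less often by construction: the counts were 14 without KO1, 12 and 1 without KO3, 10 without WT2, 11 without WT3, 19 and 2 without WT5, and 2 lower without WT4. With 1 library left out, 0.773% to 1.56% of tested genes had KO wholly above WT and 0.896% to 1.6% wholly below.

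Gpr65 encodes a proton-sensing receptor of immune cells (ENSMUSG00000021886, plus strand, 98268635 to 98276644, window 7). It had 481, 536, 463, 557 and 591 normalized counts in KO1 to KO5 and 268, 406, 235, 230 and 401 in WT1 to WT5. KO was higher throughout, with WT2 and WT5 nearest to KO. The difference was log2 0.81 ± 0.20 (SE; limma unadjusted p = 0.00142, adjusted p = 0.418). Mbip encodes a subunit of the ATAC histone acetyltransferase complex (ENSMUSG00000021028, minus strand, 56328303 to 56345894, window 4). Its levels were 285, 420, 295, 403 and 397 in KO1 to KO5 and 224, 207, 228, 154 and 271 in WT1 to WT5. KO2, KO4 and KO5 were the 3 highest libraries and WT4 was the lowest (log2 0.73 ± 0.20, limma adjusted p = 0.470).

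Taf1b encodes a subunit of the selectivity factor that brings RNA polymerase I to ribosomal RNA genes (ENSMUSG00000059669, plus strand, 24498359 to 24558539, window 2). It had 227, 342, 262, 334 and 336 normalized counts in KO1 to KO5 and 209, 205, 203, 159 and 189 in WT1 to WT5, a difference of log2 0.62 ± 0.18 (SE; limma adjusted p = 0.485). KO1 and KO3 were between the WT libraries and the other KO libraries, the same placing as in Mbip. Snx6, a sorting nexin of the retromer pathway (minus strand, 54746349 to 54795703, window 4), had 1594, 2103, 1548, 2199 and 2236 in KO1 to KO5 and 1488, 1428, 1141, 1474 and 1442 in WT1 to WT5. KO1 and KO3 lay just above the WT libraries, and WT3 was the lowest (log2 0.46 ± 0.17, limma adjusted p = 0.674).

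Pnn, the splicing-associated protein pinin (plus strand, 59066884 to 59073998, window 4), had 871, 935, 1008, 941 and 1002 normalized counts in KO1 to KO5 and 817, 705, 804, 758 and 790 in WT1 to WT5. The groups were separate by a small gap and the difference was log2 0.30 ± 0.13 (SE; limma adjusted p = 0.756). Slc38a6, of an amino acid transporter family (plus strand, 73286779 to 73354049, window 5), had 435, 386, 384, 394 and 350.1 in KO1 to KO5 and 337, 312, 337, 240 and 343 in WT1 to WT5. KO1, not KO2, was its highest library (log2 0.32 ± 0.16, limma adjusted p = 0.786).

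Jag2 went the other way. It encodes a ligand of Notch receptors (ENSMUSG00000002799, minus strand, 112907819 to 112929776, window 8) and had 86.7, 61.9, 140.6, 64.4 and 79.4 normalized counts in KO1 to KO5. In WT1 to WT5 it had 143, 232, 185, 264 and 133. KO3 overlapped WT5 and the other KO libraries were lower than every WT library. The difference was log2 -1.15 ± 0.27 (SE; limma unadjusted p = 0.000932, adjusted p = 0.418), and -0.94 on the corrected scale. Macc1, a gene linked to metastasis of colon carcinoma (plus strand, 119314270 to 119469987, window 8), had 456, 439.8, 551, 643 and 631 in KO1 to KO5 and 968, 759.5, 935, 556 and 1055 in WT1 to WT5. WT4 was within the KO range and the other WT libraries were above it (log2 -0.63 ± 0.20, limma adjusted p = 0.590). Stxbp6, a syntaxin-binding protein, was the other gene with a lower unadjusted p under 0.05, at log2 -0.84 ± 0.31 (limma adjusted p = 0.676).

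**Figure D5:**
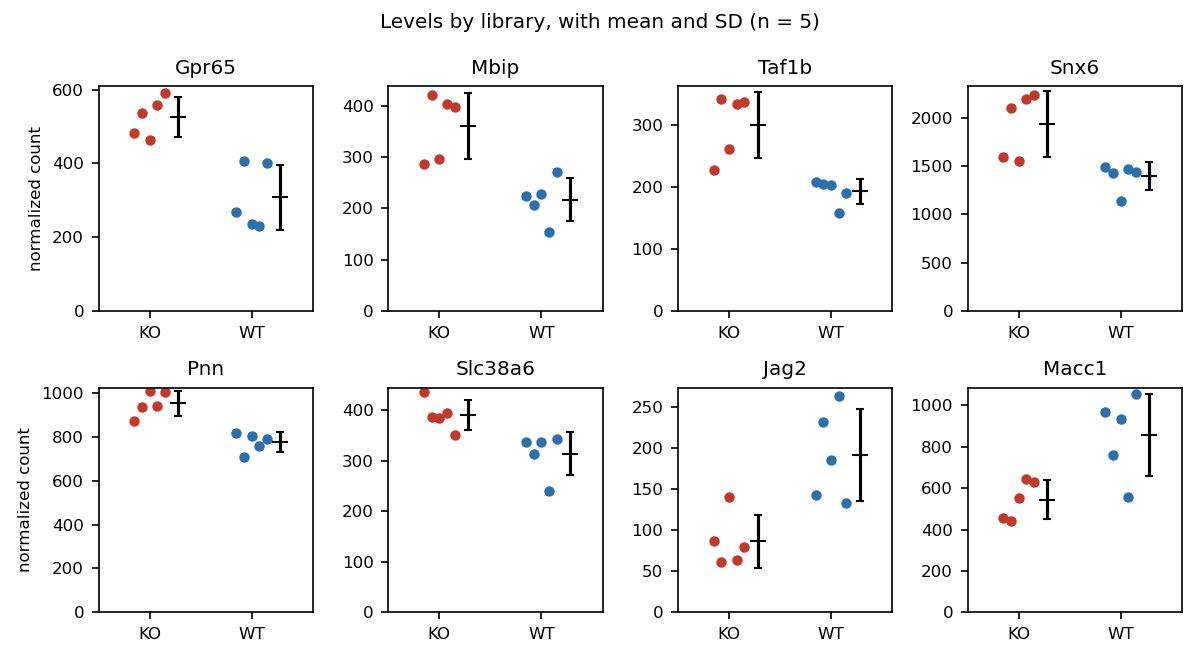
Normalized counts in each library (points) of 6 genes whose KO and WT libraries do not overlap and of Jag2 and Macc1, with the mean and SD of each group (n = 5) as bars. Gpr65 lies at 463 to 591 in KO and 230 to 406 in WT, and Jag2 at 61.9 to 140.6 in KO and 133 to 264 in WT.

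Gene groups on chromosome 12 are described by counts and medians, to be read beside the 81.4% above 0 and the median of 0.21 over the 382 genes and the 49.0% and -0.01 over all tested genes. Genes of a group that lie below the level threshold are not in its counts. Counts at an unadjusted p under 0.05 are to be read beside the 31 higher and 3 lower of the 382, and the 2.82% and 3.67% of all tested genes. Among genes of translation, splicing, protein folding and the proteasome, 19 of 20 had a fitted difference above 0, with a median of 0.26. Limma called 0 of them, and 2 (both higher) had an unadjusted p under 0.05 (background 2.82%). Rps7, a protein of the small ribosomal subunit and the gene of highest level in window 2, had 9481, 19925, 10920, 23695 and 22157 normalized counts in KO1 to KO5 and 9932, 16627, 7231, 8118 and 10964 in WT1 to WT5. KO2, KO4 and KO5 stood highest, KO1 and KO3 were within the WT range, and the difference was log2 0.67 ± 0.32 (limma adjusted p = 0.779). Srsf5, a splicing factor, had 2854, 3079, 3252, 2516 and 2135 in KO1 to KO5 and 2184, 1324, 2444, 1457 and 1854 in WT1 to WT5 (log2 0.60 ± 0.21, limma adjusted p = 0.669). Its order of libraries was not that of Rps7, since KO5 was its lowest KO library. Hsp90aa1, the inducible cytosolic chaperone, differed by log2 0.35 ± 0.31, and Rbm25, another splicing protein, by 0.43 ± 0.24. Both were below 0 within the libraries without the RESUB prefix, at -0.14 and -0.057.

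Of the immune and immediate-early transcription regulators among the 382 genes, 12 of 16 had a difference above 0 (median 0.18) and 0 had an unadjusted p under 0.05 or a limma call. Batf and Bcl11b, of the same group but below the level threshold, differed by log2 0.32 and -1.05 (limma unadjusted p = 0.447 and 0.0246). Id2, an inhibitor of helix-loop-helix factors, had 433, 654, 536, 637 and 1248 normalized counts in KO1 to KO5 and 391, 576, 552, 382 and 384 in WT1 to WT5. KO5 was far above the other KO libraries, which were in or near the WT range (log2 0.54 ± 0.26, limma adjusted p = 0.779). Ahr, the aryl hydrocarbon receptor, differed by log2 0.55 ± 0.32, Hif1a by 0.31 ± 0.22 and Hbp1, an HMG-box repressor, by 0.31 ± 0.16. Hif1a was at -0.30 within the libraries without the prefix. Of 6 interferon-stimulated genes 5 were above 0 (median 0.22) and 0 were called, with 1 at an unadjusted p under 0.05. That gene was Tnfaip2, induced by tumour necrosis factor, with 1594, 2685, 1693, 2219 and 2582 in KO1 to KO5 and 1169, 1507, 1470.1, 1880 and 1409 in WT1 to WT5 (log2 0.52 ± 0.20, limma adjusted p = 0.693). WT4 lay within its KO range. Cmpk2, a mitochondrial nucleotide kinase, was at log2 -0.26 ± 0.29, Ifi27 at 0.22 ± 0.24 and Wars, a tRNA synthetase, at 0.22 ± 0.21. Cmpk2 was at 0.16 within the RESUB libraries and Wars at -0.019 without WT2, WT3 and WT5. T cell markers had a mean log2 level of 6.10 ± 0.58 in KO and 5.49 ± 0.50 in WT (SD, n = 5), and their part in these differences was not tested.

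Among lysosome, lipid and myeloid genes, 12 of 16 had a difference above 0 (median 0.21), and 4 were higher at an unadjusted p under 0.05 (background 2.82%), with 0 limma calls. Beside Gpr65 these were Npc2, which carries cholesterol out of lysosomes, Arg2, the mitochondrial arginase, and Serpina3g, a protease inhibitor. Npc2 had 3972, 5232, 4528, 5239 and 7117 normalized counts in KO1 to KO5 and 3663, 4543, 3769, 4216 and 2608 in WT1 to WT5 (log2 0.47 ± 0.21, limma adjusted p = 0.754). WT2 and WT4 lay within the KO range. Arg2 differed by log2 0.49 ± 0.22 and Serpina3g by 0.64 ± 0.26. Laptm4a, a lysosomal membrane protein and the gene of highest level in window 1, differed by 0.29 ± 0.26. Macrophage markers had a mean log2 level of 10.91 ± 0.17 in KO and 10.75 ± 0.41 in WT (SD, n = 5) and were lower in KO for 1 of 6 genes. Neutrophil markers ranged from 7.18 to 8.67 in KO and from 6.16 to 8.69 in WT and were lower in KO for 0 of 5. The groups overlapped for both marker lists, and the part of these cells in the differences was not tested.

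Limma called 0 genes in each remaining list. Of the signalling genes 16 of 21 had a difference above 0 (median 0.11), with 2 higher, Nampt and Pgf, and 1 lower, Jag2, at an unadjusted p under 0.05 (background 2.82% and 3.67%). Nampt, which makes a precursor of NAD, had 2092, 2853, 1989.6, 3052 and 3664 normalized counts in KO1 to KO5 and 1676, 2028, 2097, 1537 and 2294 in WT1 to WT5 (log2 0.48 ± 0.20, limma adjusted p = 0.746). Pgf, placental growth factor, differed by log2 0.69 ± 0.30. Of the cytoskeleton, adhesion and matrix genes 16 of 20 were above 0 (median 0.22) and 0 had an unadjusted p under 0.05. Lamb1, a laminin chain, was at log2 0.37 ± 0.33 (-0.23 within the RESUB libraries) and Sptb, the beta spectrin of red cells and muscle, at -0.95 ± 0.46, with its highest value in WT2, where skeletal muscle markers were also highest (13.51, against 2.46 to 10.19 in the other 9 libraries). Of the genes of nucleotide supply, DNA repair and division 11 of 18 were above 0 (median 0.13), with Mnat1, a subunit of the kinase complex that activates cyclin-dependent kinases, higher at an unadjusted p under 0.05 (log2 0.47 ± 0.18). Vrk1, a nuclear kinase, was at 0.24 ± 0.18, Lin52, a subunit of a complex that controls cell cycle genes, at 0.23 ± 0.19 and Cdca7l, a MYC-binding protein, at 0.16 ± 0.14. Of 4 epithelial genes 2 were above 0, Tspan13, a tetraspanin, at 0.36 ± 0.19 and Rdh11, a retinol dehydrogenase, at 0.05 ± 0.16. The other two were Ckb, a creatine kinase, at -0.02 ± 0.31 and Macc1, which alone had an unadjusted p under 0.05. The signs of Rdh11 and Ckb changed with the libraries used.

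Other genes among the 12 smallest p in each direction serve varied functions. Higher in KO were Snapc1, of the complex that starts transcription of small nuclear RNA genes (log2 0.65 ± 0.22), Trmt5, a tRNA methyltransferase (0.59 ± 0.21), Sdc1, the cell surface proteoglycan syndecan (0.58 ± 0.20), Zfp277, a zinc finger protein (0.54 ± 0.20), 2700097O09Rik (0.53 ± 0.20) and Alkbh1, a nucleic acid demethylase (0.47 ± 0.16). Sdc1 had 2608, 4033, 2853, 4022 and 4492 normalized counts in KO1 to KO5 and 2373, 1845, 2707, 2891 and 2151 in WT1 to WT5, and only KO1 and KO3 reached into the WT range. Ppp2r3c, a regulatory subunit of a protein phosphatase and a gene that deviated strongly in WT4 in window 4, was at 0.51 ± 0.24. Lower in KO were Lpin1, a phosphatidate phosphatase (-0.66 ± 0.34), Fbln5, a protein of elastic fibres (-0.49 ± 0.24), Osr1, a zinc finger factor of mesenchyme (-0.49 ± 0.33), Crip2, a LIM domain protein (-0.43 ± 0.27), Rin3, a regulator of endocytic Rab proteins (-0.41 ± 0.25), Adi1, of methionine salvage (-0.38 ± 0.22), Sgpp1, a sphingosine phosphate phosphatase (-0.34 ± 0.24), and Daam1, a formin (-0.30 ± 0.18). Limma called none of them. Crip2 and Rin3 were at 0.10 and 0.27 within the libraries without the RESUB prefix, and Sgpp1 at 0.012 without WT2, WT3 and WT5. Snapc1, Alkbh1, Ppp2r3c and Cdca7l share exonic bases with another protein-coding gene, as do 73 of the 382, and their reads may include those of the partner.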

How the data were processed

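RNA was extracted from tumour tissue for 10 libraries, depleted of ribosomal RNA and sequenced, per the labels' protocols. The submitters' processing notes name bcl2fastq 2.17 for base calls and GRCm38 as the build. The aligner, the counter and the use of strand and molecular identifiers are not given in the sources used here. The authors deposited gene-level signal values, normalized counts that are whole multiples of 1 read in every library (100% of values within 0.0001 of a read). Those whole reads, 8609756 to 19934428 per library, were recovered for edgeR 4.0.16 and DESeq2 1.42.0.

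The 17975 genes whose mean reached 10 normalized counts were compared with limma 3.58.1 (R 4.3.3, intensity trend) on log2(value + 1), which understates changes of low genes, with Benjamini-Hochberg adjustment at 0.05 over all of them. Windows of 15 Mb were filled by gene start. The corrected scale removes splines of GC content and log2 exonic length from each library (17883 genes). The limma test was checked on simulated data, and the edgeR and DESeq2 tests were not. Figures were drawn with matplotlib 3.10.9 (Python 3.11.15).

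The genes and lists were chosen with earlier results of these data known. Genes named are the 12 of smallest limma p in each direction, the highest and the most deviating members of each window, those at the level threshold, and up to 4 per list. Slc38a6 was named after its values were seen. Same-numbered KO and WT libraries did not deviate together except in replicate 3 (correlations 0.017, 0.099, 0.518, 0.026 and -0.229). The numbers were therefore not used as pairs. WT2 and WT5 differed by a chi-square per degree of freedom of 147, within the range of pairs (31.2 to 182), and were kept apart. The targeted gene and 3 genes that the naming rule chose are not reported here. Alternatives changed the pseudocount, filter, scaling, test, covariates, level threshold, window width, gene set and libraries. The corrected scale within each library prefix and without WT2, WT3 and WT5 was added after seeing the data.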

Additional observations from a re-analysis of the deposited data

Results flagged for a closer look

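Of the groups of 5 libraries examined for chromosome 12 values, 7 held a library that stood far from the other 4. Chance gives about 1 in 20 groups, or 8.3 here. In window 7 on the corrected scale WT3 had a median deviation of 0.079, against -0.075 to -0.063 in the other WT libraries. Among single genes, WT3 had 1141 normalized counts of Snx6 against 1428 to 1488 in the other WT libraries. It lowers the WT mean of that gene. WT2 had 649 of Sptb against 88.3 to 229, and WT4 had 857 of Wars against 467 to 533. In the KO group, KO5 had 1760.0 of Serpina3g against 826 to 1085 and 1248 of Id2 against 433 to 654, and KO1 had 44.7 of Ccdc85c, a coiled-coil protein, against 82.5 to 89.9. Causes were not tested.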

How the results depend on the processing

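The chromosome 12 difference was above 0 under all 29 alternatives, as were those of its 8 windows, and 27 of the 29 chromosome values stayed within 1 SD of the deposited 0.217. The exceptions were 0.313 within RESUB and 0.088 without the prefix. Within RESUB windows 2, 3, 4 and 5 were at 0.386, 0.513, 0.607 (the highest window) and 0.511, and without the prefix windows 1 to 5 were at 0.040, 0.085, 0.016, 0.051 and 0.056. On the corrected scale within RESUB windows 1 and 2 were at 0.339 and 0.338. Without WT2, WT3 and WT5 window 7 was at 0.195. As 1 prefix group has 1 KO and the other 1 WT library, the lone library is assumed to vary like the others.

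The GC and length correction moved the library medians of chromosome 12 to -0.127 in WT4 and -0.115 in WT5. It moved window medians to -0.065 (WT2) and -0.115 (WT5) in window 1, to -0.192, -0.118, -0.194, -0.063 and -0.225 (WT4) in windows 3, 4, 5, 7 and 8, to -0.173, -0.075 and -0.087 (WT5) in windows 6, 7 and 8, and to 0.120 (KO5) in window 7. A level threshold of 7 gave -0.0020 for WT3 in window 1. In place of the chosen genes, the lower-level genes gave 0.121 in KO1, 0.065 in KO2, 0.051 in KO5 and -0.023 in WT4, and the genes that do not code for protein -0.015, -0.216, -0.037 and -0.155 in WT2 to WT5.

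Limma called 0 members in every alternative and edgeR 0, while DESeq2 called 1. Counts of members with KO wholly above and wholly below WT were 16 and 2 on the corrected scale, 6 to 19 and 0 to 2 with each library left out, 49 and 4 without WT2, WT3 and WT5 (5.59% and 5.13% of all tested genes), 16 and 1 with WT2 and WT5 averaged (1.23% and 1.36%), 190.0 and 23 within RESUB (18.7% and 19.5%) and 114 and 55 without the prefix (23.5% and 24.4%). Fewer libraries separate more often by construction.

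No replicate pairing was shown. The median of the same-numbered KO minus WT differences was 0.195 for the chromosome (windows 0.101 to 0.312). A limma fit with the replicate number as a block left the median fitted difference of the members at 0.21, as without the block. It gave 0 calls and, at an unadjusted limma p under 0.05, 26 members higher in KO and 4 lower. Only replicate 3 correlated best with its own number.

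Of 63 named genes, 40 kept their sign and 23 did not. Without the prefix the log2 differences were 0.27 for Rin3, 0.10 for Crip2, -0.28 for Wdr35, -0.17 for Ttc32, -0.36 for Lrrn3, -0.51 for Gpr22, -0.30 for Hif1a, -0.067 for Prpf39, -0.16 for Eml5, -0.14 for Hsp90aa1, 1.25 for Ccdc85c, -0.017 for Atp5s, -0.057 for Rbm25, -0.15 for Arhgap5, -0.15 for Map4k5, -0.085 for Rdh11 and 0.56 for Ckb. Within RESUB they were -0.23 for Lamb1, -0.010 for Ltbp2, 0.16 for Cmpk2 and 0.24 for Ckb. With the prefix as a term they were -0.11 for Wdr35, -0.11 for Lamb1, -0.039 for Eml5, 0.42 for Ccdc85c, -0.0066 for Atp5s and 0.40 for Ckb. Without WT2, WT3 and WT5 they were 0.012 for Sgpp1, -0.11 for Hhipl1, -0.019 for Wars and -0.016 for Rdh11, and on the corrected scale 0.13 for Ckb. With each library left out Wdr35 ran from -0.018 to 0.37, Rdh11 from -0.00038 to 0.14 and Ckb from -0.19 to 0.22. The causes of these changes of sign were not tested.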

Other observations

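Genes of the immunoglobulin heavy chain locus and of the imprinted Dlk1-Dio3 domain lie in window 8 but were not among the 382 genes. They are outside the protein-coding annotation class or lie below the level threshold. Ighm, the constant region of immunoglobulin M, had 218, 183, 222, 455 and 125 normalized counts in KO1 to KO5 and 341, 515, 112, 1087 and 110 in WT1 to WT5. WT4 held by far the most, as it did for Ighg1 (361, against 0.97 to 29.1 in the other WT libraries), and the groups overlapped. Rian, a maternally expressed noncoding RNA of the Dlk1-Dio3 domain, had 717, 626, 544, 1051 and 815 in KO1 to KO5 and 1374, 882, 261, 327 and 611 in WT1 to WT5. Meg3, another such RNA, had 438, 285, 426, 332 and 252 in KO1 to KO5 and 628, 291, 294, 213 and 218 in WT1 to WT5. For both the WT range enclosed the KO range, with WT1 highest. The protein-coding genes listed for the domain and found in the table, Begain, Rtl1 and Dio3, were at 6.56 to 21.9, 7.96 to 73.1 and 0.97 to 67.2 normalized counts.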
